A study of Mus musculus with 6 samples.

Results

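The genes described here are 10 that encode receptors for serotonin, namely Htr1a, Htr1b, Htr1d, Htr1f, Htr2a, Htr2c, Htr3a, Htr4, Htr5a and Htr7, out of 55450 genes counted in the cerebral cortex of adult mice. They were listed by name, with no threshold on a measured value, although earlier results of these data were known when the list was made. All 10 passed the filter on low counts that left 27939 genes for testing. Polyadenylated RNA was sequenced in 3 libraries from mice heterozygous for Setd5 and in 3 libraries from wild type mice. Setd5 codes for a chromatin protein with a SET domain, and in humans variants that inactivate a copy of it cause a neurodevelopmental disorder with intellectual disability. The sources used here do not give the kind of Setd5 allele, the strain or the sex of the mice. No label says that libraries of a genotype came from separate animals, so p-values measure the spread between libraries only, and that spread may be technical.

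Serotonin reaches the cortex through axons of neurons in the raphe nuclei of the brainstem, and what it does there depends on the receptor a cell carries. Receptors of the 5-HT1 and 5-HT5 families couple to Gi/o proteins and lower cyclic AMP, the 5-HT2 receptors couple to Gq and release calcium through phospholipase C, and 5-HT4, 5-HT6 and 5-HT7 receptors couple to Gs and raise cyclic AMP. The 5-HT3 receptor differs from all of these in being a cation channel opened by serotonin itself. In the cortex Htr2a is best known from pyramidal neurons and Htr3a from a class of interneurons apart from those that make parvalbumin or somatostatin.

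Library totals ran from 82850628 to 92860628 gene counts. Setd5 transcript stood at 68.7 to 75.3 CPM (the count as a rate per library, scaled to its effective size) in heterozygous libraries and at 97.0 to 111 CPM in wild type libraries, in the direction of the labels. The cortical identity of the tissue was checked with 7 defining markers, all of them detected, among them the excitatory marker Slc17a7 at 865 ± 39.6 CPM in heterozygotes, against 839 ± 47.9 CPM in wild types (SD, n = 3 libraries each). A list of 16 markers of striatal neurons, which lie beneath the cortex, differed widely between libraries of the same genotype. Its summed level ran from 437 to 856 CPM in heterozygous libraries and from 339 to 1822 CPM in wild type libraries. Xist, the transcript of X inactivation, was at 865 CPM in heterozygous replicate 3 and 784 CPM in wild type replicate 3, against 0.450 to 0.876 CPM in the other 4 libraries. In bulk tissue, fewer cells of a type and less RNA per cell cannot be told apart.

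Transcript levels of the receptors were set side by side per length, as CPM per kb of exon, because their exons add up to between 2083 bases for Htr3a and 9328 bases for Htr2c. Htr2a stood first, at 10.4 ± 0.992 CPM per kb in heterozygous and 11.7 ± 2.23 CPM per kb in wild type cortex (SD, n = 3 libraries each). Htr5a came next, at 5.30 ± 0.528 CPM per kb in heterozygous and 5.005 ± 0.364 CPM per kb in wild type cortex. These ranks were the same in all 6 libraries, and the range of each of these genes over the libraries lay clear of the gene below it. From Htr1a to Htr1f, which held ranks 3 to 8 by their means, each gene's range overlapped that of its neighbour. Their means over the 6 libraries ran from 3.07 CPM per kb for Htr1a down through Htr7, Htr3a, Htr1b and Htr2c to 1.71 CPM per kb for Htr1f. Htr1d and Htr4 were at the low end in each library, with means of 0.420 and 0.240 CPM per kb, and they exchanged ranks 9 and 10 between libraries.

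**Figure D1:**
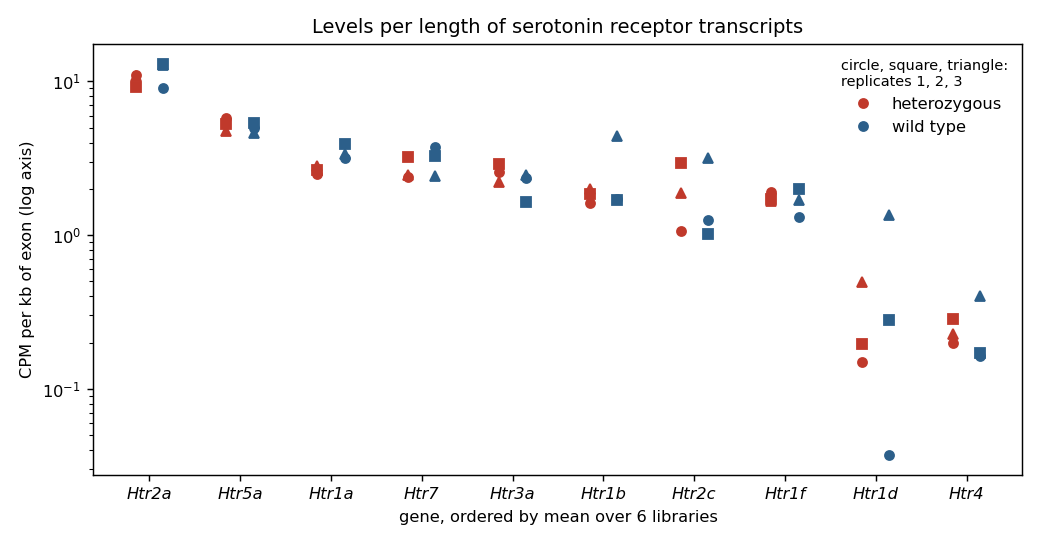
Level per length (CPM per kb of exon, log axis) of each serotonin receptor gene in each library, heterozygous left of wild type, with genes ordered by their mean over 6 libraries. Htr2a and Htr5a stand above the other genes in all 6 libraries, and Htr1d spreads most, from 0.0370 to 1.36 CPM per kb.

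Of the 10 receptor genes, Htr1a alone had libraries that separated between genotypes, and each heterozygous library was below all 3 wild type libraries. At an adjusted p under 0.05 edgeR's quasi-likelihood test called 0 of the 10 receptor genes, where it called 0% of all genes tested. DESeq2 also called 0 of the 10, against 0.277% of the genes it gave an adjusted p. Setd5 itself, at 67.7% of the wild type level, was not called by edgeR (adjusted p 0.258) but was by DESeq2 (adjusted p 2.13e-07). At an unadjusted p under 0.05 stood 1 of the 10, Htr1a, against 5.83% of all genes in either direction and 3.38% in the lower direction. Libraries of the genotypes did not overlap for 1 of the 10, again Htr1a, against 11.7% of all genes in either direction and 5.85% with heterozygous lower. A count of 1 in 10 is near these backgrounds and is not a result about the receptor genes as a group. Of the 10 genes 6 had a fitted level below wild type and 4 above, against 50.1% of all genes below, and the median log2 difference of the 10 was -0.12, against 0.00 over all genes tested (-0.00053 before rounding).

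**Figure D2:**
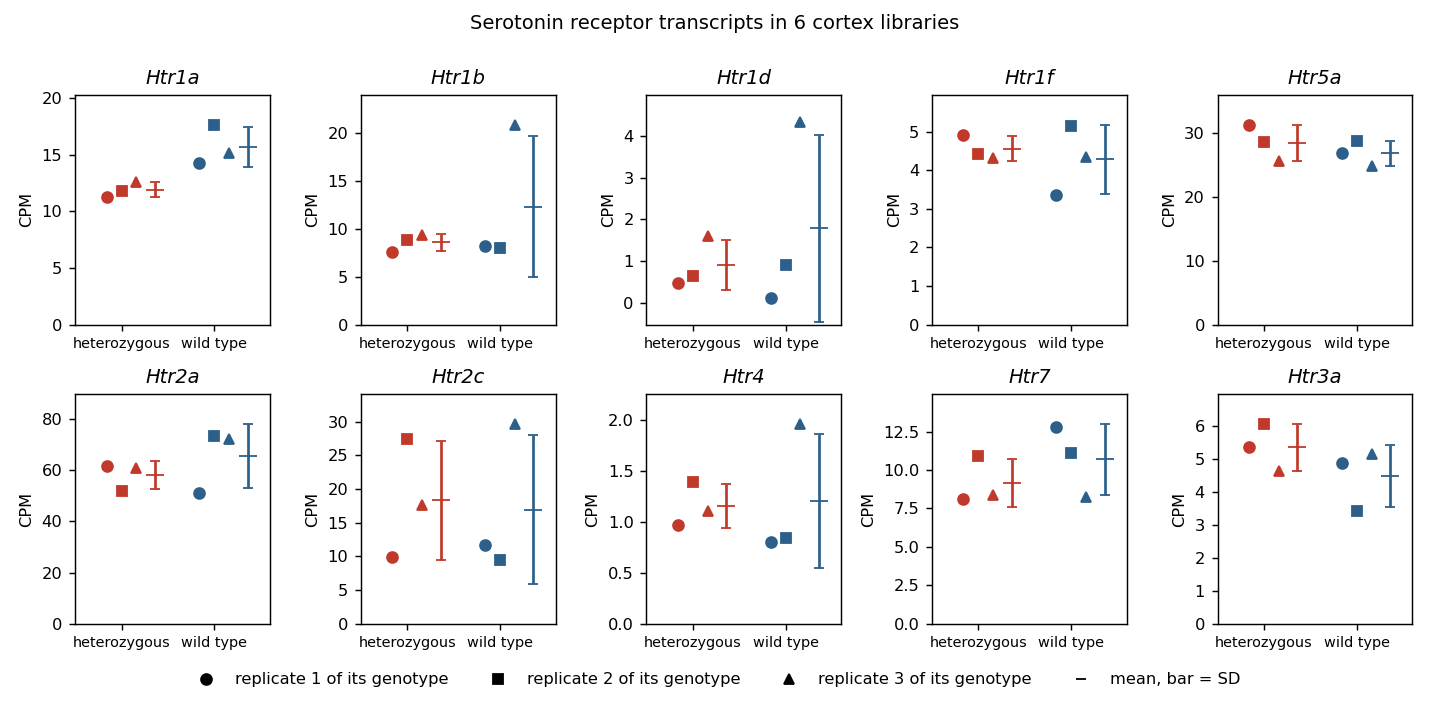
Level (CPM, linear axis) of each serotonin receptor gene in 3 heterozygous and 3 wild type libraries, with the mean and SD beside the points of each genotype. The points of Htr1a do not overlap between genotypes (11.3 to 12.6 CPM in heterozygous, 14.2 to 17.6 CPM in wild type), and wild type replicate 3 stands above the other libraries for Htr1b, Htr1d, Htr2c and Htr4. The lower bar of Htr1d in wild type runs below 0 because its SD exceeds its mean.

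Htr1a encodes the 5-HT1A receptor, an autoreceptor that restrains serotonin neurons and, in the cortex, an inhibitory receptor of the neurons that carry it. It is a gene with a single exon on the plus strand, at chr13:105443639-105448122 in GRCm38. Htr1a was at 11.3, 11.8 and 12.6 CPM in heterozygotes (replicates 1 to 3), against 14.2, 17.6 and 15.1 CPM in wild types (replicates 1 to 3). The highest heterozygous library thus lay under the lowest wild type library, and no other member showed this. The log2 difference was -0.39 (SE 0.10), so heterozygotes had 76.1% of the wild type level (95% interval 65.0% to 89.1%). Its p ranked 117 of the 27939 genes, and the adjusted p by edgeR was 0.761, so the difference did not pass. With each library left out in turn the log2 difference stayed between -0.46 and -0.30, with unadjusted p from 0.00222 to 0.0164. With the level of striatal markers as a covariate it was -0.39. Immediate early genes, which neurons switch on with activity, differed between the libraries, with 28 of 29 above wild type and 12 higher at an unadjusted p under 0.05. Over all 27939 genes tested 683 were higher at such a p, and 50.1% lay below wild type. The list level of the immediate early genes is a mean log2 CPM relative to wild type. It was 0.71, 0.70 and 0.13 in heterozygotes (replicates 1 to 3), against 0.40, -0.08 and -0.315 in wild types (replicates 1 to 3). With that level as a covariate the log2 difference of Htr1a was -0.28 and its unadjusted p 0.0569. The level itself leaned higher in heterozygotes, so the parts of genotype and of this level cannot be told apart in that fit.

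The stretch before the start of Htr1a is shown because this gene had the clearest difference. It runs for 196 bases at chr13:105443443-105443638 on the plus strand of GRCm38.p6, from RefSeq's promoter table, and ends where the GENCODE transcript begins. Capitals mark a GC box, GGGCGG on either strand, which binds Sp1-type factors.
Htr1a: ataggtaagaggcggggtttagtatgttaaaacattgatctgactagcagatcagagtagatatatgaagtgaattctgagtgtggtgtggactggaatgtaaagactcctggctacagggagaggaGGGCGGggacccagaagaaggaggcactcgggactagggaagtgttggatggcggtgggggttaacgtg
It holds 1 GC box, as do 23.9% of the 32851 promoters in the table over the same stretch, and neither a CCAAT box (CCAAT) nor a TATA box (TATAAA) on either strand. It holds 5 CpG dinucleotides, against a median of 6 over the whole windows of all promoters. These data measure transcripts, and no binding at this stretch was measured.

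Htr1b and Htr1d encode a pair of closely related receptors on axon terminals, both targets of the triptan drugs for migraine, and both were dominated by wild type replicate 3. Htr1b lies on the minus strand at chr9:81628291-81633828. Its level was 7.61, 8.79 and 9.40 CPM in heterozygotes (replicates 1 to 3), against 8.16, 7.97 and 20.9 CPM in wild types (replicates 1 to 3). Apart from wild type replicate 3 the libraries of the genotypes were interleaved. The log2 difference was -0.52 (SE 0.33, adjusted p by edgeR 0.873), and it was 0.093 without wild type replicate 3. On the opposite strand the uncharacterised gene D430036J16Rik shares 852 exon bases with Htr1b, or 18% of the exon length of Htr1b. The kit leaves strand unmarked, so the part of each gene in the shared reads cannot be separated. D430036J16Rik was at 3.15, 2.89 and 3.59 CPM in heterozygotes, against 3.55, 3.39 and 9.61 CPM in wild types, with its highest value in the same library as Htr1b.

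Htr1d lies on chromosome 4 and was at 0.479, 0.631 and 1.59 CPM in heterozygotes (replicates 1 to 3), against 0.118, 0.899 and 4.34 CPM in wild types (replicates 1 to 3). These values come from 10 to 383 counts per library. Within the wild type group alone the highest library was 36.7 times the lowest, the widest spread of any of the 10 receptor genes. The log2 difference of -0.99 (SE 0.91, adjusted p by edgeR 0.902) has a 95% interval from 12.3% to 207% of wild type. It was 0.82 without wild type replicate 3 and 0.11 with the striatal marker level as a covariate.

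Over all 6 libraries Htr1f and Htr5a ranged least among the Gi/o-coupled receptors. Within each genotype Htr1a ranged less than Htr1f. Htr1f, the receptor for the migraine drug lasmiditan, lies on chromosome 16 and was at 4.93, 4.43 and 4.32 CPM in heterozygotes, against 3.36, 5.14 and 4.34 CPM in wild types. The heterozygous values lay within the wild type range, and the log2 difference was 0.09 (SE 0.16). Htr5a, on chromosome 5 from 27842149 to 27855088, encodes a Gi/o-coupled receptor for which few selective ligands are known. It was at 31.3, 28.6 and 25.6 CPM in heterozygotes, against 26.9, 28.8 and 24.9 CPM in wild types. The highest library was 1.26 times the lowest, the narrowest spread of the 10 genes. Its log2 difference was 0.08 (SE 0.09) with a 95% interval from 91.9% to 122% of wild type, on the log2 scale the tightest bound among the receptors. Of 4 ratios computed between receptors per length, that of Htr5a to Htr1a alone did not overlap between genotypes. It was 2.32, 2.01 and 1.70 in heterozygous libraries, against 1.58, 1.37 and 1.38 in wild type libraries. Htr1a, its denominator, did not overlap by itself, so this ratio is not a separate result.

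Among the Gq-coupled receptors, Htr2a was abundant and Htr2c was variable. Htr2a encodes the receptor through which the classical psychedelics act, and lies at chr14:74640840-74709494 on the plus strand. It was at 61.7, 51.7 and 60.9 CPM in heterozygotes (replicates 1 to 3), against 51.1, 73.3 and 72.1 CPM in wild types (replicates 1 to 3). Wild type replicate 1 was the lowest of all 6 libraries and wild type replicates 2 and 3 the highest. The log2 difference was -0.17 (SE 0.13), with a 95% interval from 72.2% to 109% of wild type. It was -0.32 without wild type replicate 1, at an adjusted p of 0.655 by edgeR. Without wild type replicate 2, wild type replicate 3 or heterozygous replicate 2 it was -0.088, -0.097 and -0.095 in that order.

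Htr2c encodes a receptor of neurons and of the choroid plexus whose transcripts are altered by RNA editing, and lies on the X chromosome at chrX:146962513-147197277. Its level was 9.87, 27.4 and 17.6 CPM in heterozygotes (replicates 1 to 3), against 11.6, 9.51 and 29.6 CPM in wild types (replicates 1 to 3). High and low libraries occurred in both genotypes, and the highest was 3.11 times the lowest. The log2 difference was 0.11 (SE 0.44, adjusted p by edgeR 0.985), and it was 0.79 (unadjusted p 0.0361) without wild type replicate 3 and -0.30 without heterozygous replicate 2. Transthyretin (Ttr), a defining product of the choroid plexus, was at 0.598, 1.64 and 3.32 CPM in heterozygotes, against 1.51, 0.753 and 5.69 CPM in wild types. Kcnj13, another choroid plexus marker, did not move with Ttr. In each genotype replicate 3 was the highest library for Ttr and the lowest for Kcnj13, so Ttr alone does not stand for the list. Of 14 choroid plexus markers 12 were tested, 8 of them below wild type and 4 above, and their summed level ran from 5.80 to 10.8 CPM in heterozygotes, against 8.46 to 15.1 CPM in wild types. With the mean log2 level of the 14 choroid plexus markers as a covariate the log2 difference of Htr2c was 0.48. As Ttr and Kcnj13 moved apart, that level may not measure the amount of choroid plexus tissue. Heterozygous replicate 2, with the second highest Htr2c level, was not among the libraries with high Xist. Without the 2 libraries with high Xist the log2 difference of Htr2c was 0.81 (unadjusted p 0.0586).

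Neither Gs-coupled receptor separated the genotypes. Htr4, whose product is a target of drugs for gut motility, was at 0.968, 1.39 and 1.11 CPM in heterozygotes, against 0.804, 0.842 and 1.96 CPM in wild types. The log2 difference was -0.06 (SE 0.35), and 0.49 without wild type replicate 3. Htr7, on chromosome 19, encodes a receptor linked to circadian phase shifts. It was at 8.14, 10.9 and 8.35 CPM in heterozygotes, against 12.8, 11.1 and 8.23 CPM in wild types. Its log2 difference was -0.23 (SE 0.17) with a 95% interval from 65.5% to 111% of wild type, and with libraries left out in turn it ran from -0.38 (unadjusted p 0.0192) without wild type replicate 3 to -0.079 (unadjusted p 0.659) without wild type replicate 1.

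Htr3a, the subunit that forms the serotonin-gated channel, lies on chromosome 9 from 48899213 to 48911099. It was at 5.37, 6.06 and 4.65 CPM in heterozygotes, against 4.90, 3.41 and 5.16 CPM in wild types. The groups overlapped, with the lowest value in wild type replicate 2. The log2 difference was 0.26 (SE 0.17, adjusted p by edgeR 0.874) and 0.09 without wild type replicate 2. Without the 2 libraries with high Xist it was 0.46 (unadjusted p 0.0347). Of 17 markers of the interneuron class that carries Htr3a, 8 were below and 9 above wild type. Their median log2 difference was 0.00, with 3 at an unadjusted p under 0.05, all lower, against 3.38% lower over all genes tested. The most abundant of the 17 were the neuropeptide gene Cck, at 393 ± 15.1 CPM in heterozygotes, against 412 ± 85.7 CPM in wild types, and the membrane protein gene Lamp5, at 286 ± 20.1 CPM in heterozygotes, against 303 ± 33.1 CPM in wild types (SD, n = 3 libraries each). Neither Cck nor Lamp5 was among those 3.

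**Figure D3:**
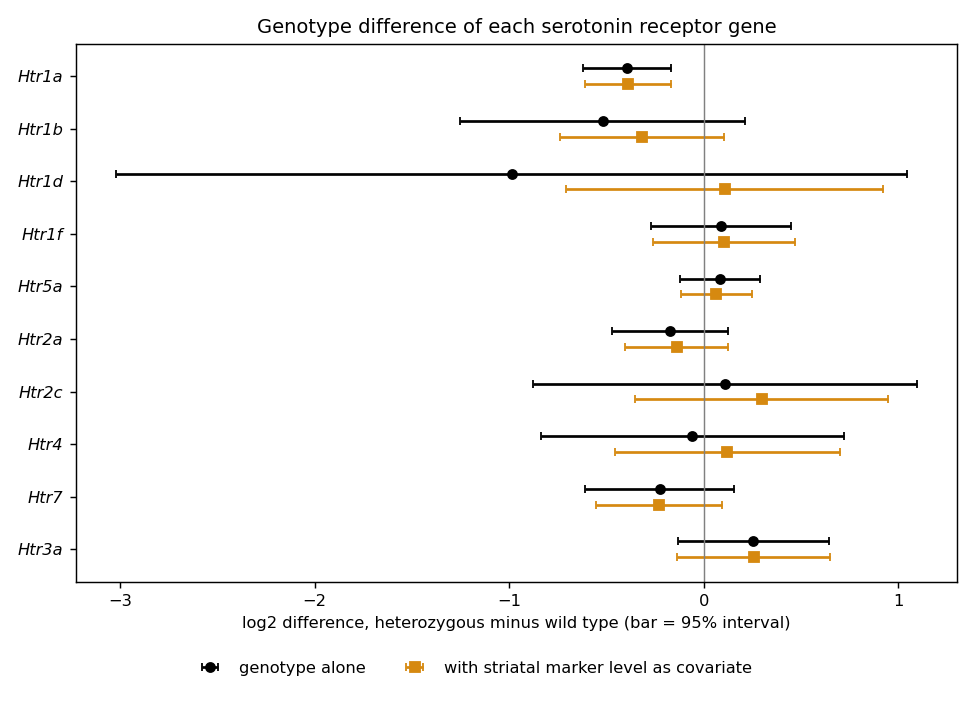
Log2 difference of each serotonin receptor gene, heterozygous minus wild type, with 95% intervals, from the fit on genotype alone (black circles) and with the striatal marker level as a covariate (orange squares). The interval of Htr1a lies below 0 in both fits (-0.62 to -0.17 and -0.61 to -0.17), and those of the other 9 genes include 0.

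Over the libraries of both genotypes together, some receptors followed the striatal markers and others did not. The striatal level, computed in the same way, was -1.66, -0.08 and 0.91 in heterozygotes (replicates 1 to 3), against -1.92, -0.12 and 2.04 in wild types (replicates 1 to 3). Ppp1r1b, which encodes the dopamine-regulated phosphatase inhibitor DARPP-32, was at 89.8, 116 and 172 CPM in heterozygotes, against 50.6, 108 and 384 CPM in wild types. Drd2, the D2 dopamine receptor, was at 0.435, 3.26 and 9.82 CPM in heterozygotes, against 0.603, 4.27 and 30.8 CPM in wild types. None of the 16 markers was called, and 0 stood at an unadjusted p under 0.05, although all 16 had a fitted level below wild type.

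Over the 6 libraries the log2 CPM of Htr1d correlated with the striatal level at Pearson's r = 0.94 (two-sided exact permutation p = 0.00556) and Spearman's rho = 0.94 (exact p = 0.0167). This was 1 of 10 relations computed, 1 for each receptor gene, with p-values not adjusted. For Htr1b r was 0.80 (exact p = 0.00972) and rho 0.83 (exact p = 0.0583). Leaving out wild type replicates 1 and 3, which were farthest from the median level, gave r = 0.91 for Htr1d and 0.89 for Htr1b over 4 libraries. Htr4 had r = 0.80 (exact p = 0.0611) with rho 0.89 (exact p = 0.0333), and its r was 0.29 without those libraries, so it rests on them. Htr2c had r = 0.73 (exact p = 0.104) with rho 0.71 (exact p = 0.136), and 0.51 without those libraries. Htr5a ran the other way, at r = -0.70 (exact p = 0.113) and rho -0.66 (exact p = 0.175), and its r was -0.97 without those libraries. Htr1a had r = 0.28 (exact p = 0.582) and rho 0.20 (exact p = 0.714), and its r was 0.29 without them. Within a genotype, 3 libraries are too few for a correlation, but in each genotype the library with the highest striatal level was also the highest for Htr1b and for Htr1d. With the striatal level as a covariate the log2 difference was 0.11 for Htr1d, -0.32 for Htr1b, 0.30 for Htr2c and 0.12 for Htr4, with adjusted p from 0.841 to 0.982. The libraries with high Xist were also those with the highest striatal level, so the part of each cannot be told apart.

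**Figure D4:**
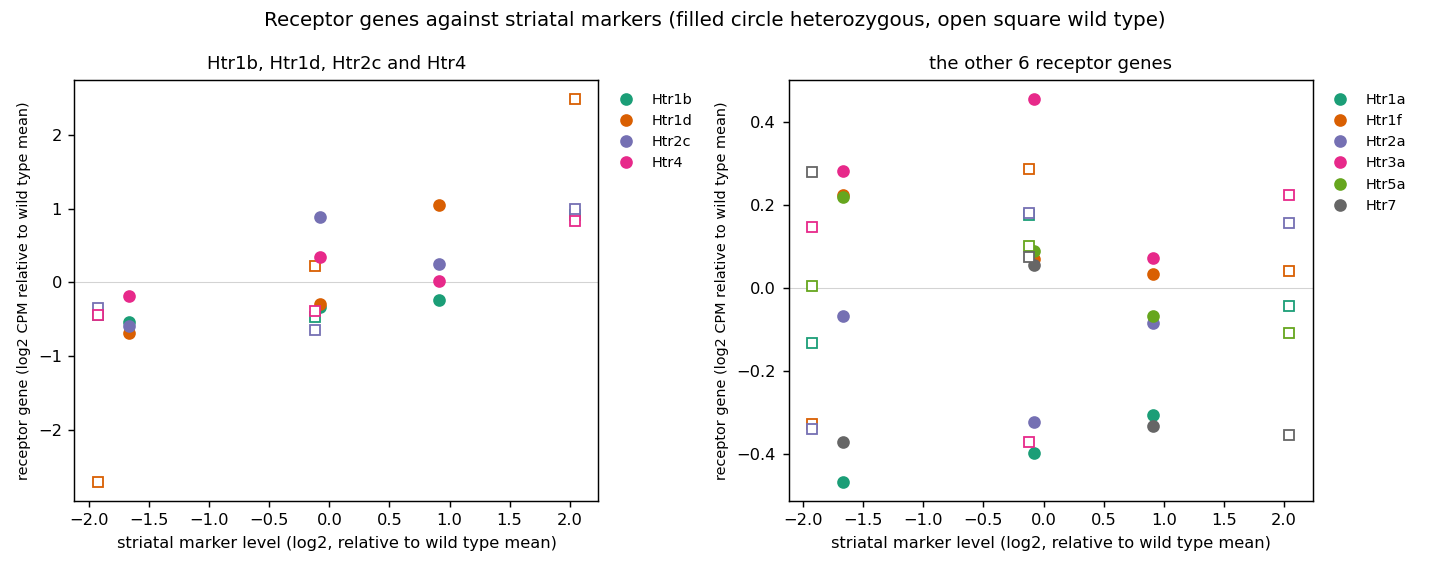
Log2 CPM of each serotonin receptor gene, relative to its wild type mean, against the striatal marker level of the same library (log2), for 4 genes grouped after their values were seen (left) and the other 6 (right, on a narrower axis). Htr1d climbs across the whole range of striatal levels, and Htr1b stands apart in wild type replicate 3, at 20.9 CPM.

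The promoters of Htr1d, Htr2c and Htr1b are shown because these 3 receptor genes ranged most in log2 CPM over the libraries, by 5.06, 1.64 and 1.45. Each window is the 250 bases before the RefSeq start in GRCm38.p6, written in the direction of transcription. For Htr1b it is chr9:81633833-81634082 on the minus strand, for Htr1d chr4:136423274-136423523 on the plus strand and for Htr2c chrX:146962263-146962512 on the plus strand. Capitals mark GC boxes (GGGCGG) and CCAAT boxes (CCAAT), each on either strand, which do not overlap here.
Htr1b: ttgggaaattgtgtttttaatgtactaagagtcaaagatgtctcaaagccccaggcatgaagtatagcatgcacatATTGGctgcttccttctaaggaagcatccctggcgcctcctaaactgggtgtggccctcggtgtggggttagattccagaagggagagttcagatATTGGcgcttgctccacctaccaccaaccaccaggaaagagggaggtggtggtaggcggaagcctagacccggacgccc
Htr1d: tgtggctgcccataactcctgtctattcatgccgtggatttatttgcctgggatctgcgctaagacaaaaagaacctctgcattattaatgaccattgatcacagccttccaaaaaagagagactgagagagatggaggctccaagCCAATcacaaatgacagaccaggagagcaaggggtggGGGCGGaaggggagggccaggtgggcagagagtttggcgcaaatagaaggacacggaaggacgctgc
Htr2c: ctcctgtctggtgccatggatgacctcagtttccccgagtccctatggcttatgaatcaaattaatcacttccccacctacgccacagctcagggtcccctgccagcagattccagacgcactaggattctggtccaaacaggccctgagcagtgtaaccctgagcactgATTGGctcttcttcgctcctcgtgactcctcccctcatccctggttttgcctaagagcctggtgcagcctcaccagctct
All 3 hold at least 1 CCAAT box, with 2 before Htr1b, as do 33.8% of the 32851 promoters in the table, and Htr1d alone of the 3 holds a GC box, as do 32.7%. None holds a TATA box (TATAAA), which 12.4% of promoters hold. Their GC contents of 52.4%, 51.6% and 55.6% lie near the median of 52.4%. Of the 10 receptor genes 8 have a window in the RefSeq table.

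By class, the shares of receptor transcripts overlapped between genotypes in each class. As a share of the summed level per length, the 2 Gq-coupled genes made up 41.6 ± 1.65% in heterozygous and 41.4 ± 3.67% in wild type libraries (SD, n = 3 libraries each). The 5 Gi/o-coupled genes made up 39.9 ± 1.18% in heterozygous and 41.1 ± 0.854% in wild type libraries, and the 2 Gs-coupled genes 9.85 ± 1.49% in heterozygous and 10.8 ± 3.20% in wild type libraries. The Htr3a channel made up 8.67 ± 1.02% in heterozygous and 6.74 ± 1.69% in wild type libraries, with ranges from 7.59% to 9.61% in heterozygous and from 5.06% to 8.43% in wild type libraries. Htr2a alone was 30.4% to 40.3% of the sum, depending on the library. The summed level of the 10 genes was 29.2, 30.3 and 29.4 CPM per kb in heterozygous libraries, against 27.9, 32.4 and 36.8 CPM per kb in wild type libraries, and these groups overlapped too.

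**Figure D5:**
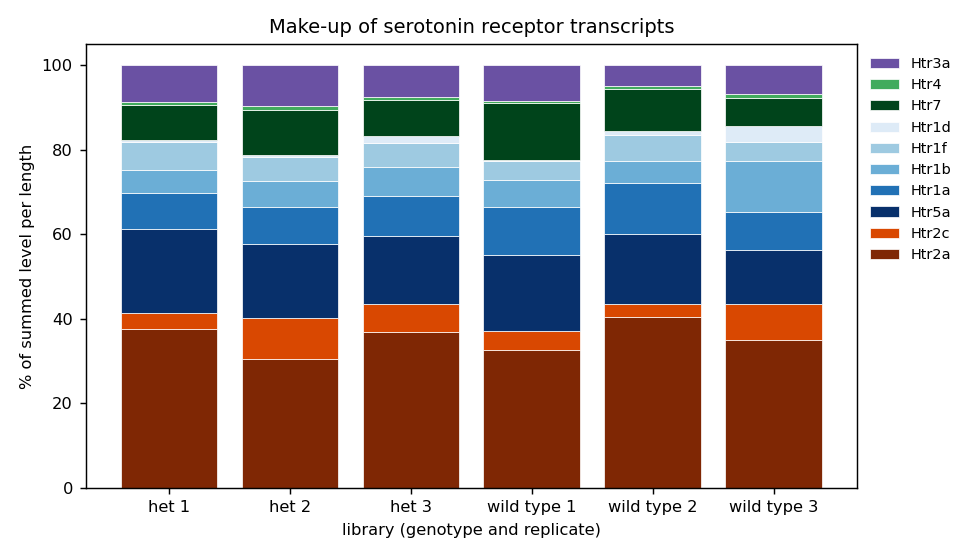
Share of each gene in the summed level per length (percent of CPM per kb over the 10 genes) in each library, heterozygous left of wild type, with Gq-coupled genes in browns, Gi/o-coupled in blues, Gs-coupled in greens and the channel in purple. Htr2a is the largest part of each bar, and Htr1b is widest in wild type replicate 3.

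The mouse has 4 further serotonin receptor genes in the annotation, and all had a mean level per length under that of Htr1f. Htr6, a Gs-coupled receptor known from the striatum, was at 2.60 ± 0.193 CPM in heterozygotes, against 3.07 ± 0.775 CPM in wild types (SD, n = 3 libraries each). Htr5b, a relative of Htr5a, was at 0.923 ± 0.200 CPM in heterozygotes, against 0.676 ± 0.275 CPM in wild types. Htr2b was at 0.196, 0.412 and 0.417 CPM in heterozygotes, against 0.497, 0.573 and 0.488 CPM in wild types, without overlap, from 18 to 51 counts per library. Its log2 difference was -0.60 (SE 0.35, adjusted p by edgeR 0.866), and -0.33 without heterozygous replicate 1. Htr2b shares 11.8% of its exon length with Psmd1 on the other strand, a proteasome gene at 141 to 158 CPM, so its few counts are uncertain. Htr3b, a partner subunit of Htr3a in the channel, had 0 to 8 counts per library and was not tested. At a count of 0, levels under a limit of 0.0326 to 0.0364 CPM (3 counts, counting error only) remain possible in the libraries.

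Around the receptors, the genes of serotonin signalling gave no call by edgeR, although a few stood apart at an unadjusted p under 0.05. In the list of 14 genes of serotonin synthesis, transport and breakdown 13 were tested, 10 of them below wild type and 3 above, with 3 lower and 0 higher at an unadjusted p under 0.05 and a median log2 difference of -0.17. Over all genes tested, 5.83% stood at such a p, and 3.38% on the lower side. Aldh2, a mitochondrial aldehyde dehydrogenase that takes part in breaking down the serotonin aldehyde, had a log2 difference of -0.27 (SE 0.09). Qdpr, which regenerates the tetrahydrobiopterin cofactor of serotonin synthesis, differed by -0.35 (SE 0.12), and Slc29a4, a plasma membrane transporter of monoamines, by -0.34 (SE 0.15). Their adjusted p by edgeR ran from 0.810 to 0.855. Without wild type replicate 3 Aldh2 differed by -0.17 and Qdpr by -0.21, and without heterozygous replicate 2 Slc29a4 differed by -0.22.

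Of 24 G proteins and effectors 16 were below wild type and 8 above, with 1 at an unadjusted p under 0.05 (5.83% over all genes), and the median was -0.03. That gene was Plcb3, a phospholipase C of the Gq pathway, at 6.89 ± 0.521 CPM in heterozygotes, against 8.51 ± 0.534 CPM in wild types (SD, n = 3 libraries each). Prkca, a protein kinase C downstream of it, differed by -0.19 (SE 0.09) in log2, and Gnai3, an inhibitory G protein subunit, by 0.19 (SE 0.09). Without wild type replicate 3 these were -0.13 for Prkca and 0.098 for Gnai3.

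Of 21 partners and regulators of the receptors 14 were below wild type and 7 above, with 2 lower and 1 higher at an unadjusted p under 0.05 (5.83% over all genes in either direction) and a median of -0.03. Grk5, a kinase that shuts off G protein-coupled receptors, was at 15.97, 16.5 and 16.9 CPM in heterozygotes, against 22.5, 20.1 and 20.8 CPM in wild types. All 3 heterozygous values lay below the wild type range, with a log2 difference of -0.36 (SE 0.08). Its adjusted p was 0.719 by edgeR and 0.0445 by DESeq2. S100a10, or p11, which brings 5-HT1B and 5-HT4 receptors to the cell surface, was at 12.8, 12.8 and 11.2 CPM in heterozygotes, against 13.2, 17.0 and 19.4 CPM in wild types. Its groups did not overlap, and its log2 difference was -0.43 (SE 0.13, adjusted p by edgeR 0.797). Rgs2, an inhibitor of Gq signalling, was the gene on the higher side, at 70.9 ± 2.87 CPM in heterozygotes, against 62.7 ± 0.956 CPM in wild types (SD, n = 3 libraries each), a log2 difference of 0.18 (SE 0.06).

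The receptor genes whose log2 CPM ranged most were Htr1d, Htr2c and Htr1b, and the genes most like them were sought among 18984 others with a mean of at least 1 CPM, by Pearson's r over the 6 libraries. These are the highest values of a search over many genes and few libraries, and are given as a description. Closest to Htr1d were the predicted gene Gm9989 and Rimkla, at r = 0.995 and 0.991. Closest to Htr2c were Wdr31 (r = 0.996) and Rps13 (r = 0.994), and closest to Htr1b were Fads6 (r = 0.997) and the transcript C030006K11Rik (r = 0.996).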

How the data were processed

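The deposited values are raw read counts per gene, 1 table per library, not normalized. Per the submitters' processing notes the authors used FastQC, featureCounts, DESeq2 and Bowtie2 2.3.4.3, and the notes name the builds GRCm38.p6 and mm10. Per the labels' protocols, libraries came from Trizol RNA treated with DNase I and a TruSeq v2 kit, which does not mark strand. The sources used here do not give the aligner's target, the strand setting or the handling of reads with several matches. Bowtie2 does not span introns, so reads over exon junctions may be lost, more in Htr3a with its 9 exons than in Htr1a with 1.

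All 55450 gene identifiers matched GENCODE M21. Genes were kept by filterByExpr (minimum count 10, total 15), scaled by TMM and tested over all 27939 by quasi-likelihood in edgeR 4.0.16 (glmQLFit, glmQLFTest, under R 4.3.3), with Benjamini-Hochberg adjustment at 0.05. The fit was tested on simulated data with known changes. SE and 95% intervals come from this fit, and CPM from effective library sizes. List levels are means of log2 CPM with a prior count of 1. Alternatives used DESeq2 1.42.0 and limma 3.58.1. No library pair agreed within sampling noise (chi-square per gene 11.7 to 93.9). Members and lists were chosen with earlier results of these data known. Named genes are Setd5, all receptor genes, the 3 genes of smallest p at a mean of at least 1 CPM in each pathway list, up to 2 of the most abundant genes of a marker list, and the 2 genes most like each of 3 receptor genes. Drd2, Slc6a4, Fev, Gata2, Gata3, En1 and Lmx1b, as defining markers, and D430036J16Rik and Psmd1, as overlapping genes, were named after their values were seen.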

Additional observations from a re-analysis of the deposited data

How the results depend on the processing

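Of the 189 log2 differences that the alternatives gave for the 10 receptor genes, 22 turned direction, and 0 of the 10 genes was called under any alternative run. Htr1a, Htr3a and Htr7 kept their direction throughout, and so did the 9 named pathway genes, but sizes moved. With the immediate early gene level as a covariate Gnai3 was at 0.011, Prkca at -0.035, Qdpr at -0.092 and S100a10 at -0.27. That level itself leaned higher in heterozygotes, so the parts of genotype and of this level cannot be told apart there. Htr1a ranged from -0.46 to -0.28, with adjusted p from 0.101 in DESeq2 to 0.9999. The genes called over the whole genome were 6 with every gene of at least 1 count tested, 29 by the likelihood ratio test of edgeR, 59 by DESeq2, 1 at an adjusted p under 0.1, and 0 to 2 with a library left out (2 without wild type replicate 2), against 0 in the reported fit.

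With the immediate early gene level as a covariate the log2 difference was 0.16 for Htr1b, 2.23 for Htr1d, 0.095 for Htr2a, 0.47 for Htr4, -0.042 for Htr5a and -0.19 for Htr5b. With the striatal level it was 0.11 for Htr1d and 0.12 for Htr4, with the choroid plexus level 0.018 and 0.16, and with Xist 0.057 for Htr4. Htr4 was at 0.045 in limma-voom. Without the 2 libraries with high Xist, chosen after seeing the data, it was 0.023 for Htr1b, 0.11 for Htr1d and 0.52 for Htr4. With a library left out in turn it ran from -0.76 to 0.093 for Htr1b, -1.69 to 0.82 for Htr1d, -0.057 to 0.24 for Htr1f, -0.30 to 0.79 for Htr2c and -0.28 to 0.49 for Htr4, and without a turn from -0.32 to -0.088 for Htr2a, 0.088 to 0.37 for Htr3a, 0.0062 to 0.15 for Htr5a and -0.38 to -0.079 for Htr7. The cause of these changes was not tested. No paired analysis was possible because replicate numbers only follow the order of the records. Among the 10 genes, counts were lowest for Htr4, at 68 to 173 per library, and Htr1d, at 10 to 383.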

Other observations

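Among genes used as markers of serotonin neurons, Tph2, Slc18a2, Gata2 and Lmx1b were measured in each cortex library. Slc6a4, Fev, Gata3 and En1 were near 0, and the source of the measured transcripts was not tested. Tph2, the neuronal enzyme that makes serotonin, was at 2.75, 3.27 and 2.41 CPM in heterozygous libraries, against 3.15, 4.83 and 2.36 CPM in wild type libraries, with 208 to 430 counts each. Slc18a2, the vesicular monoamine transporter, was at 9.60 ± 0.678 CPM in heterozygotes, against 8.66 ± 1.22 CPM in wild types (SD, n = 3 libraries each). Slc6a4, the serotonin transporter of these neurons, had 1, 2 and 2 counts in heterozygous libraries, against 4, 6 and 0 counts in wild type libraries. Fev, the transcription factor of serotonin neurons, had 2, 2 and 0 counts in heterozygous libraries, against 6, 0 and 0 in wild type libraries.

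Gata3 had 0, 0 and 0 counts in heterozygous libraries, against 6, 4 and 0 in wild type libraries. Gata2 had 85 to 144 counts per library, Lmx1b 12 to 31 and En1 2 to 4. Of the 8 serotonin neuron markers 4 passed the filter on low counts, 2 of them above and 2 below wild type.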
